A study of Homo sapiens with 24 samples.

Results

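m6A-seq peaks in the 5′ untranslated region (5′UTR) were examined in 6 human cell populations. A peak was taken as a 5′UTR peak when, clipped to exons of its gene on the longest protein-coding isoform of GENCODE 44, it had the middle of the remaining stretch before the start of the coding sequence (CDS). By this rule 11603 of 171945 peaks placed on a coding isoform (6.75%) lay in the 5′UTR, on 5042 genes, out of 228472 deposited peaks. The number per list was 2212 (hPSC), 1343 (DE), 1555 (PP), 1107 (hILO), 2563 (WT PP) and 2823 (A5-KO PP). Where 6 values follow each other below without names, they are in this order of populations, and 4 values are in the order of the first 4.

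All cells were derived from MEL1, a human embryonic stem cell line that carries a GFP reporter at the insulin gene. The first batch followed pancreatic differentiation from human pluripotent stem cells (hPSC) over definitive endoderm (DE) and pancreatic progenitors (PP) to human islet-like organoids (hILO), and used mRNA, a SYSY antibody against m6A and Illumina libraries. The second batch compared unedited pancreatic progenitors (WT PP) with progenitors whose ALKBH5 gene carried indels made by CRISPR-Cpf1 with a pair of crRNAs (A5-KO PP), and used total RNA, a Millipore antibody, the SMARTer Stranded Total RNA-Seq Kit v2 and input RNA depleted of rRNA. Batch, antibody, RNA and kit therefore cannot be told apart between the first 4 lists and the last pair. Each population had 2 immunoprecipitated (IP) and 2 input libraries, which the authors pooled into 1 peak list. No value has a spread between libraries, and no difference between populations could be tested here. The intervals given below are Wilson 95% intervals, which cover counting error only, and peaks of one list are not replicates.

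ALKBH5, the m6A demethylase targeted in A5-KO PP, had a 5′UTR peak in WT PP with 288 input reads, 458 IP reads and a log2 enrichment of 1.76, and none in A5-KO PP. That peak lay on the isoform for 87 nt with 1 of its ends outside it. The A5-KO PP list still held ALKBH5 peaks in the CDS and the 3′UTR, with 0 to 1 input reads each. The CDS and 3′UTR peaks of WT PP likewise had 0 to 1, and the lists hold no expression value that could check the deletion. All 5 pancreatic progenitor markers had a peak in PP, hILO, WT PP and A5-KO PP, all 5 endoderm markers in DE and all 5 islet markers in hILO, whereas 3 of 5 pluripotency markers had one in hPSC and as many in DE. In hILO all 3 hepatic markers also had peaks, with 39514 input reads in them against at most 567 in any other list. Of 3 neural markers 1 or 2 had peaks in every list, with 8677 input reads in hPSC and 8862 in hILO. PAX6 is on both the neural and the islet list. All 3 mesenchymal markers had peaks in PP (1988 input reads), and 1 or 2 of them in the other lists. The part of these markers in the results was not tested. Depth differed: the median 5′UTR peak had 63.0, 97.0, 92.0, 307, 117 and 48.0 input reads.

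N6-methyladenosine (m6A) is set by the METTL3-METTL14 writer complex on adenosines in the DRACH context, and most of it is found in long internal exons and near the stop codon. The 5′UTR is the stretch that the small ribosomal subunit scans from the cap to the start codon, and m6A there has been linked to cap-independent initiation and to the use of upstream open reading frames. The 5′ end carries a further modification, m6Am, made by PCIF1 when the first transcribed base is an adenosine. Antibodies against m6A also bind m6Am, so a peak at the transcript start can come from either.

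The lists give nearly every peak as 1 span from start to end, introns included, and part of a span can lie in an intron of the isoform or outside it. Both ends of the peak lay on exons of the isoform for 7345 of the 11603 5′UTR peaks (63.3%), against 79.1% of CDS peaks and 94.1% of 3′UTR peaks. For the other 5′UTR peaks the read counts belong to a span that the isoform covers only in part. Results below are therefore given for all 5′UTR peaks or for those with both ends on the isoform, as stated with each value, and this split was chosen after the data were seen. On the Ensembl canonical isoform 80.6% of the 5′UTR peaks were again in the 5′UTR, 4.66% were in the CDS and 14.8% were not on it.

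Sequences inside 5 sites with a 5′UTR peak at all 4 stages of the first batch are shown to give their transcript context. They were chosen after their values were seen and are not the 5 most enriched: among the other sites named below, SOCS5 and WTAP had no DRACH site in the stretch shared by the 4 stages, PIP5K1B spanned an intron at all 4 stages, FAM156B has a near-identical copy, and ANKRD46, LSM7 and CCT6B ran off the isoform. Each is printed 5′ to 3′ on the transcript strand from the GENCODE 44 transcript on GRCh38, and the capitals mark the GGAC, or where the shared stretch had none the DRACH site, nearest the middle of the stretch shared by the 4 stages.
PRKD3 (chr2:37316700-37316727, minus strand): ttaagagaaataGGACctttggggcatt
MIS12 (chr17:5488295-5488323, plus strand): ggcagaggctgaGAACAgaaagagagggt
RBBP6 (chr16:24540327-24540354, plus strand): catgagcgagggGGACccagccgggtga
GPBP1 (chr5:57176216-57176244, plus strand): atgaaaactttaAAACAgaagtatgggta
FBRS (chr16:30658959-30658986, plus strand): gccgcttgtggaGGACtagaaactaact

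DRACH stands for A, G or T, then A or G, then A, then C, then A, C or T, and GGAC is its most favoured core. The shared stretch held 6 DRACH sites in PRKD3, 1 in MIS12, 9 in RBBP6, 7 in GPBP1 and 13 in FBRS. PRKD3, RBBP6 and FBRS had 2, 4 and 6 GGAC sites there, and MIS12 and GPBP1 had none. A match is a description of the sequence and not a mapped methylated base.

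The first 21 nt of 4 transcripts whose peak reached the annotated start in at least 1 list, chosen after their values were seen, show the base next to the cap in capitals.
HES1 (chr3:194136148-194136168, plus strand): Acacaggatccggagctggtg
MNX1 (chr7:157010643-157010663, minus strand): Accacggcggcagcggcctcc
HSPA1B (chr6:31827738-31827758, plus strand): Aaacggccagcctgaggagct
SOX9 (chr17:72121020-72121040, plus strand): Ggagagccgaaagcggagctc

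HES1, a Notch target that restrains endocrine differentiation, had a 5′UTR peak in 5 lists, and MNX1, a transcription factor of the pancreatic bud, in 4. HSPA1B encodes an inducible HSP70 chaperone and is nearly identical to HSPA1A, so reads may have been split between the copies. SOX9, a progenitor transcription factor, begins with G, and its peak began at the first base in both lists that held it.

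The 5′UTR took the largest share of placed peaks in hPSC, WT PP and A5-KO PP and the smallest in hILO. In the first batch it was 7.81% (7.50 to 8.13), 5.33% (5.06 to 5.62), 6.74% (6.42 to 7.07) and 4.44% (4.19 to 4.70), and in the second 7.75% (7.47 to 8.05) for WT PP and 7.56% (7.30 to 7.83) for A5-KO PP, whose intervals overlapped. Among peaks with both ends on the isoform the shares were 6.02%, 4.05%, 5.07%, 3.20%, 6.22% and 5.32%. The order of the 4 stages was the same under both definitions, while the value of A5-KO PP lay below that of WT PP under both, with overlapping intervals under the first. Among peaks with p below 1e-10 the direction turned, with 7.05% for A5-KO PP against 6.85% for WT PP. Of the genes with any placed peak, 17.9%, 11.5%, 14.7%, 9.68%, 19.0% and 19.0% had one in the 5′UTR.

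5′UTR peaks lay at all distances along the leader. Over all 5′UTR peaks the 5′ edge lay a median of 82, 125, 135, 119, 106 and 125 nt from the annotated transcript start. For peaks with both ends on the isoform, a condition that leaves out peaks crossing the start, the medians were 130, 190, 182, 185, 150 and 190 nt. Under both definitions hPSC and WT PP had the shortest distances. The middle of the peak lay at a median of 0.53 to 0.59 of the length of the leader over all 5′UTR peaks and of 0.54 to 0.63 with both ends on the isoform, where the leader had a median of 368 to 426 nt and of 451 to 511 nt. Between 20.9% and 24.4% of all 5′UTR peaks, and 19.8% to 26.0% with both ends on the isoform, ran past the start codon. More than 500 nt from the start began 14.5% to 19.7% of all 5′UTR peaks and 17.4% to 24.9% of those with both ends on the isoform.

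A peak was said to reach the start when its 5′ edge lay less than 25 nt from the first base. Of all 5′UTR peaks 31.9%, 25.5%, 22.2%, 26.9%, 26.5% and 27.7% reached it. Of these, however, only 25.8% (A5-KO PP) to 46.0% (hPSC) had the 5′ end of the deposited peak itself on the isoform, and the others came from outside its exons. With both ends required the share was 18.8% (16.9 to 20.9), 12.1% (10.1 to 14.5), 11.6% (9.73 to 13.7), 13.3% (10.9 to 16.1), 15.0% (13.4 to 16.7) and 10.9% (9.50 to 12.5). hPSC stood above the later stages in both counts, and with at least 50 input reads as well (20.6% against 11.4% to 13.5%).

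Per kilobase of annotated leader, hPSC had 0.958 midpoints of all 5′UTR peaks between 50 and 100 nt from the start and 0.733 in the first 50 nt, both above the more distant windows of that list (0.447 to 0.717). With both ends on the isoform the window from 50 to 100 nt was again the densest in hPSC (0.619), while the first 50 nt held 0.200. In A5-KO PP the first 50 nt were the densest window over all 5′UTR peaks (0.894) and the sparsest with both ends on the isoform (0.113). In hILO the window from 100 to 200 nt held 0.437 and the first 50 nt 0.317, and with both ends on the isoform these were 0.281 and 0.0353. In the plot of coverage by distance, hPSC had a local maximum at 70 nt over all 5′UTR peaks (9.565% of isoforms), lay at 7.681% at 230 nt and reached 12.052% at 590 nt. Without the peaks lying partly off the isoform coverage was 5.597%, 5.944% and 10.221% at these distances, with a shallower local maximum of 6.182% at 140 nt before 5.798% at 200 nt.

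**Figure D1:**
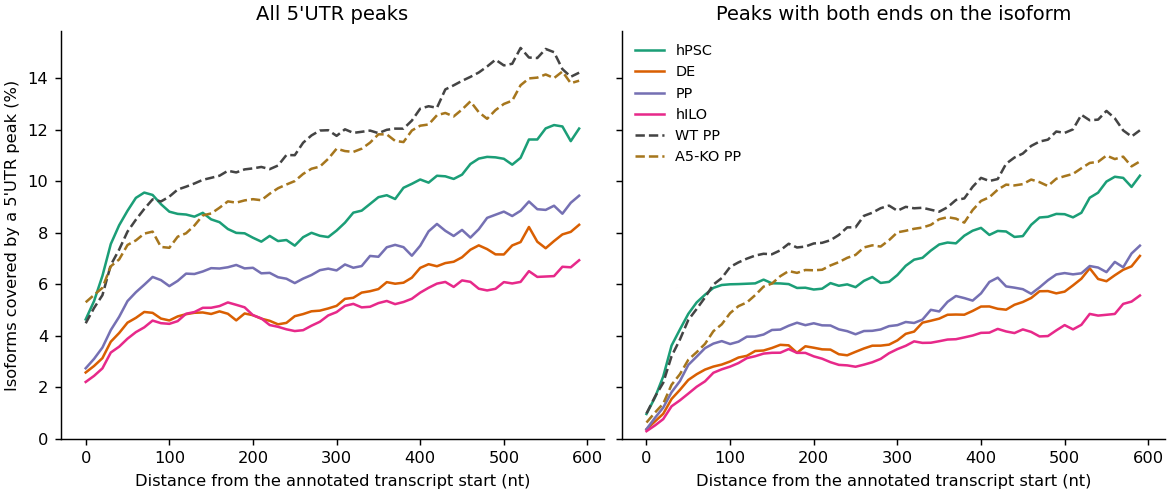
Share of isoforms covered by a 5′UTR peak (y axis, %) against the distance from the annotated transcript start (x axis, nt), among isoforms of genes with a placed peak whose 5′UTR extends to that distance. Solid lines are the 4 stages and dashed lines the second batch, with all 5′UTR peaks on the left and those with both ends on the isoform on the right. In hPSC 4.637% of the isoforms were covered at the first base on the left and 0.961% on the right.

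The first base of the transcript differed between genes whose peak reached the start and the other genes. With both ends on the isoform, the isoform began with A in 56.8% (50.8 to 62.5) of 273, 59.4% (49.9 to 68.3) of 106, 61.4% (52.2 to 69.8) of 114, 58.6% (48.1 to 68.4) of 87, 57.9% (51.8 to 63.7) of 261 and 56.4% (49.1 to 63.5) of 179 genes with a start-reaching peak. Genes whose 5′UTR peak lay away from the start began with A in 43.7% to 45.8%, genes with peaks outside the 5′UTR only in 42.6% to 44.8%, and all 19702 coding isoforms in 46.6%. The intervals of the first and second classes did not overlap in 5 lists and overlapped in hILO (48.1 to 68.4 against 40.2 to 48.9). With both ends on the canonical isoform the shares were 62.3% to 67.7% for start-reaching peaks and 51.5% to 55.2% for peaks away from the start, and there the intervals overlapped in PP only. Over all canonical isoforms the share was 51.0%. When peaks lying partly off the longest isoform were included the contrast shrank, to 45.1% against 44.9% in hILO and 51.0% against 43.1% in hPSC. On the canonical isoform with such peaks included it turned in PP, to 54.5% against 54.9%. Many genes recur in several lists, so the 6 lists are not independent of each other. Whether m6Am at the first base contributes to these peaks was not tested.

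**Figure D2:**
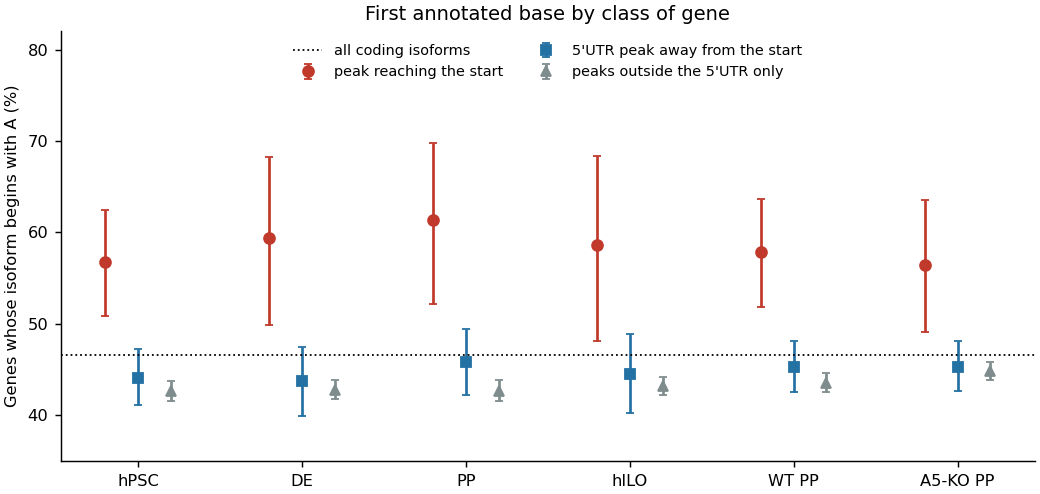
Share of genes whose longest coding isoform begins with A (y axis, %, from 35) in the 6 lists, for genes with a peak reaching the start (circles), with a 5′UTR peak away from it (squares) and with peaks outside the 5′UTR only (triangles), for 5′UTR peaks with both ends on the isoform. Bars are Wilson 95% intervals, and the dotted line at 46.6% is the share over all coding isoforms.

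The enrichment of start-reaching peaks had no common direction by first base. Over peaks with both ends on the isoform and at least 50 input reads, the median log2 enrichment for start-reaching peaks beginning with A, and with another base, was 1.54 and 1.49, 1.44 and 1.26, 1.10 and 1.36, 1.18 and 1.10, 2.57 and 2.94, and 2.83 and 3.93. The A class was higher in 3 lists and lower in 3.

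DRACH sites were denser inside 5′UTR peaks than in the rest of the 5′UTR of the same isoforms. In peaks with both ends on the isoform the density was 19.1 sites per kb in hPSC against 14.4 outside, and the 6 ratios of inside to outside were 1.33, 1.34, 1.28, 1.29, 1.22 and 1.37. Over all 5′UTR peaks they were 1.24, 1.28, 1.23, 1.21, 1.21 and 1.30. On the opposite strand the ratio over all 5′UTR peaks was 0.851 to 0.945. GGAC, which overlaps many DRACH sites, had ratios of 1.31 to 1.56 with both ends on the isoform and of 1.26 to 1.46 over all 5′UTR peaks. For comparison, over all peaks GGAC was 1.11 to 1.24 times as dense inside CDS peaks as outside and 1.94 to 2.24 times as dense inside 3′UTR peaks. Among peaks with both ends on the isoform, those reaching the start had lower DRACH ratios than those away from it in hPSC (1.12 against 1.37), DE (1.21 against 1.36), PP (1.01 against 1.32) and A5-KO PP (1.29 against 1.38), nearly equal ones in WT PP (1.22 against 1.24) and higher ones in hILO (1.37 against 1.30). Without asking for both ends, peaks away from the start had DRACH ratios of 1.27 to 1.37, in every list above that of all its 5′UTR peaks.

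A DRACH site was present in 73.2% to 79.1% of all 5′UTR peaks and in 76.8% to 85.3% of those with both ends on the isoform, against 88.3% to 93.9% of CDS and 3′UTR peaks, which were longer. Among peaks of exactly 100 nt it was present in 75% to 87.7% of the 5′UTR peaks, which numbered 36 to 140 with the site per list, and in 87.2% to 94.1% of the CDS and 3′UTR peaks. ATG, the start of any upstream open reading frame, was as dense or sparser inside 5′UTR peaks with both ends on the isoform than outside, with ratios of 0.821, 0.851, 0.930, 0.906, 0.863 and 1.01.

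5′UTR peaks were shorter, richer in G and C and less enriched than other peaks. Their median length on the isoform was 95 to 125 nt against 150 to 200 nt in the CDS and the 3′UTR, and their median GC content was 56.3% to 62.8% against 43.5% to 50.0%. The median log2 enrichment was 1.57, 1.55, 1.48, 1.39, 2.94 and 3.94, below the CDS (1.72, 1.70, 1.61, 1.52, 3.61 and 4.11) and the 3′UTR (1.77, 1.74, 1.66, 1.53, 3.74 and 4.24) of the same list. The plain log2 ratio of the deposited counts did not show that gap: in hPSC its medians were 3.24 in the 5′UTR, 3.26 in the CDS and 3.31 in the 3′UTR, and in A5-KO PP they were 2.35, 2.21 and 2.22. Among peaks with at least 50 input reads split by GC content, the median log2 enrichment of the 5′UTR was below that of the CDS in 34 of 48 combinations of list and GC range and below that of the 3′UTR in 23 of the 43 that held at least 20 3′UTR peaks. At 75% GC and above it exceeded that of the CDS in all 6 lists. In hPSC peaks of 60% to 65% GC it was 1.55 in the 5′UTR, 1.55 in the CDS and 1.60 in the 3′UTR, and in those of 55% to 60% GC it was 1.47, 1.62 and 1.61. In WT PP peaks of 60% to 65% GC it was 2.87, 3.18 and 3.09. The part of GC content in the lower enrichment was not tested.

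From stage to stage fewer 5′UTR peaks were found again than CDS or 3′UTR peaks. Peaks of another list had to cover over 50% of the exonic length for a peak to be called shared. Of the DE 5′UTR peaks 58.6% (55.9 to 61.2) were found in hPSC, against 69.9% in the CDS and 67.8% in the 3′UTR. Of the PP 5′UTR peaks 33.2% (30.9 to 35.6) were found in DE, against 56.0% and 69.9%. Of the hILO 5′UTR peaks 42.6% (39.8 to 45.6) were found in PP, against 47.2% and 47.4%. With both ends on the isoform the 5′UTR shares were 59.7%, 34.1% and 45.1%, against 71.7%, 57.1% and 49.4% in the CDS and 67.4%, 70% and 47.6% in the 3′UTR. For hILO the interval of the 5′UTR share (41.3 to 48.9) then overlapped those of the CDS (48.4 to 50.3) and the 3′UTR (46.6 to 48.6). In this direction the gap was widest from DE to PP, and 92.3% to 95.3% of the shared peaks overlapped a 5′UTR peak of that list. Of the PP 5′UTR peaks 42.9% were found in hPSC, more than in DE. In the other direction 31.0% of hPSC 5′UTR peaks were found in DE, against 53.3% in the CDS and 62.5% in the 3′UTR. For DE peaks found in PP the shares were 39.8%, 52.8% and 47.8%, and for PP peaks found in hILO 33.6%, 61.0% and 72.1%. There the gap was narrowest between DE and PP and widest between PP and hILO.

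Most 5′UTR peaks not found again lay on genes that had other peaks in the list compared. Of those in DE 24.6% (21.2 to 28.4) lay on genes without a placed peak in hPSC, of those in PP 22.4% (20.0 to 25.1) on genes without one in DE, and of those in hILO 37.3% (33.6 to 41.2) on genes without one in PP. These shares were not computed for CDS or 3′UTR peaks, so whether they differ by region was not tested. In DE, peaks found again had more input reads (median 112) than those not found (75), whereas in hILO the medians were 298 and 318.

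**Figure D3:**
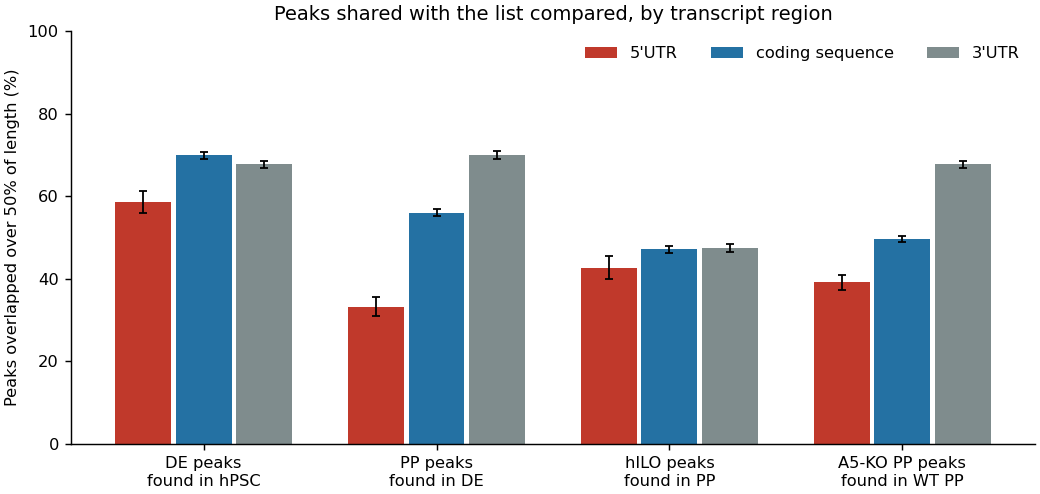
Share of peaks overlapped over more than 50% of their exonic length by a peak of the list compared (y axis, %) for DE in hPSC, PP in DE, hILO in PP and A5-KO PP in WT PP, by the transcript region of the peak. Black bars are Wilson 95% intervals, and the 5′UTR bar, from 33.2% to 58.6%, is the lowest of the 3 in each comparison.

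When the 5′UTR peaks of the 4 stages were merged where they overlapped, they formed 3680 sites on 3069 genes. A 5′UTR peak was present at 1 stage in 2267 sites (61.6%), at 2 in 746, at 3 in 376 and at all 4 in 291 (7.91%). Of the 2267 sites 2071 had no overlapping peak of any region at another stage. With peaks of any region counted, 397 of the 3680 sites (10.8%) had one at all 4 stages. No such count was made for CDS or 3′UTR sites, so these shares cannot be called particular to the 5′UTR. Of the 2240 sites with both ends of every peak on the isoform, 1465 (65.4%) were seen at 1 stage and 159 (7.10%) at all 4.

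At sites held by all 4 stages the deposited enrichment was highest in hPSC, but by the counts alone the highest value was spread over the stages. Over 135 such sites with at least 50 input reads at each stage, the median log2 enrichment was 1.83, 1.67, 1.50 and 1.44, and the highest value fell in hPSC at 62 sites, in PP at 31, in DE at 26 and in hILO at 16. With the log2 ratio of counts, centred on the median of each list, the highest value fell in hPSC at 38 sites, in PP at 35, in hILO at 34 and in DE at 28. The lists were scaled separately, so a difference between stages at one site carries the scale of both lists. Sites in the CDS and the 3′UTR were not counted in this way.

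Among the sites with a peak at all 4 stages, PRKD3, a protein kinase D isoform, had a peak 514 nt from the start in hPSC. Its log2 enrichment was 2.50 ± 0.181, 2.53 ± 0.116, 2.69 ± 0.168 and 1.95 ± 0.054 at the 4 stages, where the error is the counting error of the pooled reads. The first 3 stages lay within their counting error of each other and hILO lay below them. The peaks differed in extent: the DE peak was 650 nt long and ran past the start codon, against 275, 325 and 200 nt in hPSC, PP and hILO.

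MIS12, a subunit of the kinetochore complex that bears its name, had 2.94 ± 0.092, 2.40 ± 0.073, 2.84 ± 0.103 and 1.46 ± 0.076. Its DE peak had 1 end off the isoform. RBBP6, a ubiquitin ligase that binds RB1, had 2.75 ± 0.093, 2.23 ± 0.115, 1.88 ± 0.082 and 2.06 ± 0.090 from hPSC to hILO. It was highest in hPSC, and its other 3 stages lay between 1.88 and 2.23.

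FBRS, the homologue of fibrosin, had 2.83 ± 0.193, 2.47 ± 0.106, 1.61 ± 0.168 and 1.26 ± 0.138 from hPSC to hILO, lower at each stage than at the one before. GPBP1, a GC-rich promoter binding protein, was highest in DE (2.93 ± 0.129) and had 1.85 ± 0.111 in hPSC, 2.09 ± 0.087 in PP and 1.97 ± 0.137 in hILO. Its PP peak alone among the 4 stages spanned an intron and reached into a second exon. PIP5K1B, a phosphatidylinositol phosphate kinase, was highest in PP (3.03 ± 0.192) and lowest in hILO (0.65 ± 0.054), with 2.41 ± 0.065 in DE. Its peak spanned an intron in all 4 lists and an additional exon in hILO, where the value was lowest.

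SOCS5, a suppressor of cytokine signalling, had a peak of 75 nt at the same position in all 6 lists, 64 nt from the start of the longest isoform. Its log2 enrichment was 1.84 ± 0.063, 2.31 ± 0.059, 2.45 ± 0.172 and 1.98 ± 0.135 at the 4 stages, 5.45 ± 0.034 for WT PP and 5.03 ± 0.065 for A5-KO PP. WTAP, the adaptor subunit of the m6A writer complex, had 2.45 ± 0.124, 2.40 ± 0.105, 1.57 ± 0.040 and 1.61 ± 0.032, and no overlapping peak in the second batch. The last value is that of a 50 nt peak with 2737 input reads. A second hILO peak at this site, of 500 nt and 81 input reads, had 1.95 ± 0.181 and was closer in extent to the peaks of 600 to 675 nt at the other stages. For both genes the site is not on the canonical isoform. The peaks of ANKRD46, LSM7 and CCT6B, which met the same rule before both ends were required, ran off the isoform, and CCT6B spanned 19613 bases of which 80 nt were on it. FAM156B also met the rule but has a near-identical copy, so its reads may have been split.

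**Figure D4:**
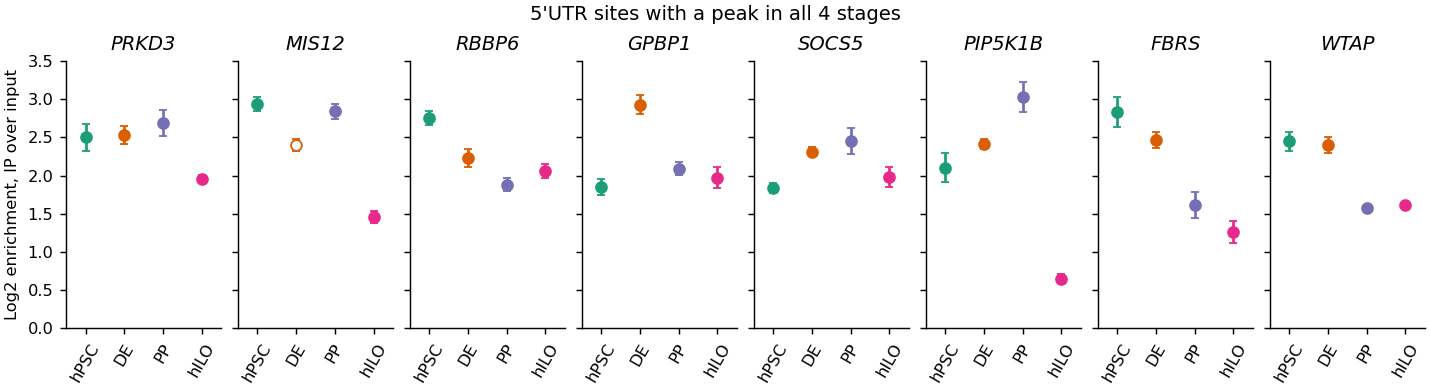
Log2 enrichment of IP over input (y axis) at the 4 stages for 8 sites that had a 5′UTR peak at every stage. Bars are the counting error of the pooled reads, and the open circle marks the MIS12 peak in DE, which had 1 end off the isoform. FBRS lies at 2.83 in hPSC and at 1.26 in hILO, whereas PRKD3 lies between 1.95 and 2.69.

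Sites seen at 1 stage and without an overlapping peak of any region at the other 3 numbered 930, 300, 542 and 299. The most enriched of these with both ends on the isoform and at least 50 input reads were, in hPSC, SRGAP3 (3.04 ± 0.154), a GTPase-activating protein of neurons, MOB3C (3.02 ± 0.203) and KBTBD11 (2.99 ± 0.200). In DE they were OR8G1 (3.03 ± 0.153), an olfactory receptor gene, CPNE4 (2.70 ± 0.159) and SNX16 (2.68 ± 0.167), a sorting nexin.

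In PP they included FBXW7 (3.31 ± 0.099), the substrate receptor of a ubiquitin ligase that degrades MYC and Notch, and TMEM64 (3.21 ± 0.070). The FBXW7 peak had 232 input and 2206 IP reads over 75 nt. In hILO they were NR2F1 (2.68 ± 0.165), a nuclear receptor, MMRN1 (2.65 ± 0.146), an adhesive protein of platelets and endothelium, and LRRC4C (2.47 ± 0.185), a synaptic adhesion protein. The sites of CPNE4 and LRRC4C are not on the canonical isoform. HTR1A in DE, GMNN in PP and GTF3C2 and NAV3 in hILO would have been named had peaks partly off the isoform been kept.

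Genes known for translation control by upstream open reading frames had 5′UTR peaks in a larger share of members than genes at large. Of those with any placed peak 7 of 13, 5 of 11, 5 of 13, 6 of 13, 4 of 12 and 3 of 10 had one, where the share over all genes was 17.9%, 11.5%, 14.7%, 9.68%, 19.0% and 19.0%. With both ends on the isoform the counts were 5, 4, 5, 4, 4 and 3, beside 11.8%, 7.39%, 9.27%, 5.69%, 13.0% and 11.3% of all genes. The groups are small and no set test was made. In the 6 lists genes with a 5′UTR peak had median leaders of 368 to 426 nt, against 171 to 184 nt for genes with other peaks only. The part of leader length in these shares was not tested.

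AMD1, the S-adenosylmethionine decarboxylase of polyamine synthesis, had a peak in 5 lists that began 36 to 86 nt from the start. At the 4 stages its log2 enrichment was 1.94 ± 0.115, 2.00 ± 0.183, 1.36 ± 0.150 and 1.13 ± 0.139, and the WT PP peak had 1.55 ± 0.133. SLC35A4, whose leader carries a long upstream open reading frame, had a peak in all 6 lists, with 272 input and 1768 IP reads in hPSC (1.09 ± 0.094) and 803 and 1778 in DE (1.34 ± 0.061). ATF4, the stress-response transcription factor, had a peak 9 nt from the start in hPSC (1.46 ± 0.134), PP (1.17 ± 0.090), hILO (1.06 ± 0.056) and WT PP (1.72 ± 0.026). AZIN1, an antizyme inhibitor of the polyamine pathway, had one at the 4 stages of the first batch, from 0.65 ± 0.091 in hILO to 1.94 ± 0.238 in PP. DDIT3, which encodes CHOP, had one in DE, WT PP and A5-KO PP, and CEBPB in A5-KO PP only.

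Islet genes had most of their 5′UTR peaks in hILO, the list in which most of them had a placed peak. Of 18 islet genes with a placed peak in hILO 8 had one in the 5′UTR, 6 of them with both ends on the isoform, beside 9.68% of all genes with a placed peak in that list. In the other lists the counts were 1 of 7 (hPSC), 1 of 5 (DE), 0 of 5 (PP), 2 of 9 (WT PP) and 1 of 11 (A5-KO PP), or 14.3%, 20.0%, 0%, 22.2% and 9.09%, beside 17.9%, 11.5%, 14.7%, 19.0% and 19.0% of all genes. PCSK2, a prohormone convertase, had 404 input and 1311 IP reads 3 nt from the start (1.53 ± 0.082), and SST, somatostatin, had 4085 and 6865 reads 8 nt from it (0.86 ± 0.029). INS had 24198 and 58888 reads (0.98 ± 0.011) on its longest isoform, a site that is not on the canonical isoform. The samples are bulk cultures, in which fewer cells of a type and less RNA per cell cannot be told apart.

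Pancreatic progenitor genes had 5′UTR peaks in 4 of 11 members with a placed peak in PP and as many of 10 in hILO, and for WT PP and A5-KO PP in 4 and 5 of 11, all with both ends on the isoform. Over all genes with a placed peak the shares were 14.7% in PP, 9.68% in hILO and 19.0% in both lists of the second batch. The counts were 2 of 4 in hPSC and 1 of 4 in DE, beside 17.9% and 11.5%. HES1 had 1.70 ± 0.446 in hPSC, 1.82 ± 0.232 in PP and 0.71 ± 0.050 in hILO. In the second batch HES1 had 2.13 ± 0.247 and 2.72 ± 0.215. MNX1 had 1.46 ± 0.091 in PP, 1.38 ± 0.126 in hILO, 2.04 ± 0.097 for WT PP and 4.46 ± 0.154 for A5-KO PP. SOX9 had 19753 input reads for WT PP (3.19 ± 0.012) against 5661 for A5-KO PP (2.68 ± 0.023), whereas NKX2-2 had 40 input reads in hILO (2.21 ± 0.242). ONECUT1 and PROX1 had peaks in PP with 1.08 ± 0.144 and 1.54 ± 0.233.

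Of 12 definitive endoderm genes with a placed peak in DE 4 had one in the 5′UTR: GATA4 (1.68 ± 0.073) and CER1 (1.48 ± 0.031) with both ends on the isoform, and GATA6 and CXCR4 partly off it. The share over all genes in DE was 11.5%. Elsewhere the list had 0 of 4 (hPSC), 2 of 7 (PP), 1 of 7 (hILO), 4 of 10 (WT PP) and 2 of 10 (A5-KO PP), beside 17.9%, 14.7%, 9.68%, 19.0% and 19.0% of all genes. CER1, a secreted Nodal and BMP antagonist, had its peak 7 nt from the start in DE alone. GATA4 had 5′UTR peaks in 5 lists, with 2 separate ones in hILO, WT PP and A5-KO PP. Of the pluripotency genes, NANOG and DPPA4 had one in hPSC (2 of 9 with a placed peak, beside 17.9% of all genes) and LIN28B in PP (1 of 5, beside 14.7%) and the second batch (1 of 4 in each list, beside 19.0%), none of them with both ends on the isoform.

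Among m6A factors, 3 of 9 readers had a 5′UTR peak in hPSC and DE, 1 of 9 in PP and hILO, 4 of 8 in WT PP, and 1 of 9 for A5-KO PP. The shares over all genes were 17.9%, 11.5%, 14.7%, 9.68%, 19.0% and 19.0%, and 1 of 9 is 11.1%, so that PP and hILO lay near them. YTHDC1, the nuclear reader, had one in 5 lists and none in A5-KO PP. In hPSC and PP the same 50 nt peak 284 nt from its start had 1.76 ± 0.149 and 1.54 ± 0.096. Of the writers 1 or 2 of 8 or 9 had one in each list (11.1% to 25%, beside 9.68% to 19.0% of all genes), WTAP at the 4 stages of the first batch, RBM15 in PP and WT PP, RBM15B in A5-KO PP, METTL16 in hILO and ZC3H13 in WT PP. PCIF1, the m6Am writer, had a pair of peaks in PP, and FTO had none.

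Translation initiation factors had 5′UTR peaks in 1 to 3 members per list, of 11 to 15 with a placed peak. That was 9.09% to 25% of them, beside 9.68% to 19.0% of all genes. EIF3B had one in 5 lists, the strongest in the first batch in PP (2.37 ± 0.249). Heat shock genes had one in 3 of 11 members in hPSC and in DE (27.3% each, beside 17.9% and 11.5% of all genes). They had one in 2 of 10 in PP (20.0%, beside 14.7%) and in 0 of 12 in hILO (beside 9.68%). In the second batch it was 1 of 11 in WT PP (9.09%) and 0 of 10 in A5-KO PP, each beside 19.0%. HSPA1B had 2.03 ± 0.049 in hPSC, 1.54 ± 0.033 in DE and 1.48 ± 0.055 in PP, with the limit on near-identical copies given above. Cytoplasmic ribosomal protein genes had one in 7 of 35 in hPSC (20.0%, near the 17.9% of all genes) and 0 of 43 in hILO (beside 9.68%). Their other counts were 2 of 31 in DE (6.45%, beside 11.5%) and 2 of 19 in PP (10.5%, beside 14.7%). In WT PP and A5-KO PP they were 0 of 23 and 1 of 21 (4.76%), each beside 19.0%. HOX genes had one in 1 of 13 in PP (7.69%, beside 14.7%) and 1 of 3 in hILO (33.3%, beside 9.68%). It was 2 of 15 in WT PP (13.3%) and 2 of 12 in A5-KO PP (16.7%), each beside 19.0%, and 0 of 2 in hPSC and in DE.

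The deposited log2 enrichment of shared 5′UTR peaks was slightly lower at each later stage. The median difference was -0.16 (DE less hPSC, 787 peaks), -0.20 (PP less DE, 517 peaks) and -0.08 (hILO less PP, 472 peaks), where all placed shared peaks had -0.11, -0.13 and -0.11. By centred count ratios the 5′UTR medians were 0.04, -0.02 and -0.01, so that the sign turned for DE less hPSC. In DE against hPSC 25 5′UTR peaks (3.18%) were higher by 1 or more and 50 (6.35%) lower, beside 4.01% and 6.10% of all placed shared peaks. In PP against DE 22 (4.26%) were higher and 37 (7.16%) lower, beside 6.99% and 8.00%. In hILO against PP 23 (4.87%) were higher and 59 (12.5%) lower, beside 4.00% and 12.6%. With at least 50 input reads in each list the shares higher were 0.922%, 2.60% and 3.83%, beside 1.86%, 4.14% and 3.04%, and the shares lower were 4.15%, 6.17% and 9.58%, beside 3.71%, 6.28% and 8.97%.

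In the second batch 39.1% (37.3 to 40.9) of the A5-KO PP 5′UTR peaks were found in WT PP, against 49.6% in the CDS and 67.7% in the 3′UTR. With both ends on the isoform the share was 45.3%, against 52.4% and 68.3%. In the other direction 34.8% (33.0 to 36.7) of the WT PP 5′UTR peaks were found in A5-KO PP, against 52.4% in the CDS and 52.7% in the 3′UTR. Of the A5-KO PP 5′UTR peaks not found in WT PP 33.9% (31.7 to 36.2) lay on genes without a placed peak there, again without a value for the other regions. The A5-KO PP 5′UTR peaks not found had a median of 32.0 input reads and those found 78.0. CDS peaks not found had the same median of 32.0. In the CDS and the 3′UTR too, peaks not found had fewer input reads than those found. Of all A5-KO PP 5′UTR peaks 20.6% had no input read at all, beside 19.8% of all placed peaks of that list. In WT PP these shares were 7.34% and 9.68%.

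Shared 5′UTR peaks had a median difference of 0.35 in log2 enrichment, A5-KO PP less WT PP, over 1104 peaks, beside 0.20 over all placed shared peaks. Of these, 406 (36.8%) were higher by 1 or more and 275 (24.9%) lower, beside 36.7% and 28.3%. Over all shared 5′UTR peaks the difference was smaller where more reads stood behind it: it was 2.91 where the smaller input count was 0, 1.29 below 10 reads, 0.42 below 50, 0.24 below 200 and 0.08 from 200 reads on. The same classes had 1.91, 0.15, 0.57, 0.34 and 0.08 with both ends on the isoform, so that the fall was not steady. By the log2 ratio of counts centred on each list it was -0.05, beside -0.20 over all placed shared peaks. Where each list had 50 input reads or more it was 0.15 over 467 peaks, beside 0.00 over all placed shared peaks, and by count ratios -0.26, beside -0.44. Of the 467 peaks 112 (24.0%) were higher by 1 or more in A5-KO PP, beside 22.4% of all placed shared peaks, and 84 (18.0%) were lower, beside 21.1%. Both shares lay near those of all shared peaks.

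**Figure D5:**
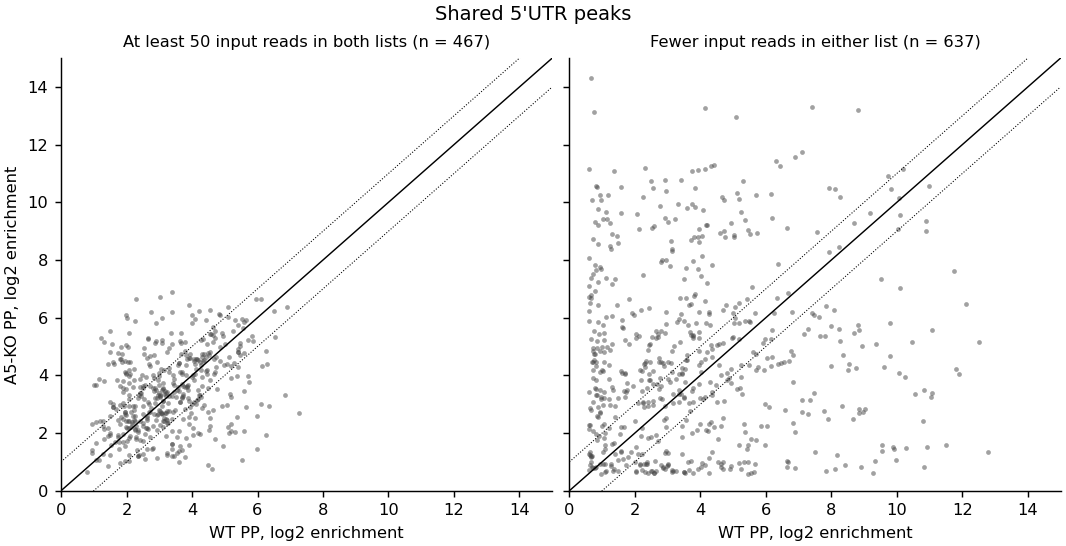
Log2 enrichment of shared 5′UTR peaks in A5-KO PP (y axis) against WT PP (x axis), with the 467 peaks that had at least 50 input reads in each list on the left and the other 637 on the right. The solid line is equality and the dotted lines lie 1 above and below it; the spread about the line is wider on the right, where few input reads stand behind the value.

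The largest positive differences, A5-KO PP less WT PP, among 5′UTR peaks of each list with both ends on the isoform and at least 50 input reads were in ELF1, an ETS transcription factor, TIGD4, ARHGEF11, a guanine nucleotide exchange factor, and ZNF711, a zinc finger protein. ELF1 had 756 input and 372 IP reads in WT PP (1.98) and 1129 and 6535 in A5-KO PP (6.08), a difference of 4.09 ± 0.10, or 3.27 by centred count ratios. ARHGEF11 differed by 4.06 ± 0.18 and ZNF711 by 3.68 ± 0.21, or 2.95 and 2.63 by count ratios. TIGD4 had a difference of 4.07 ± 0.27 in the deposited values and of 0.42 by count ratios, so its size depended on the scale.

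The largest negative differences with both ends on the isoform and a 5′UTR peak in each list were in TSHZ2, a zinc finger homeobox factor, PKDCC, a secreted kinase, SGO1, the protector of centromeric cohesion, and NFIL3, a bZIP transcription factor. TSHZ2 had 134 input and 1692 IP reads in WT PP (5.52) and 717 and 326 in A5-KO PP (1.08), a difference of -4.44 ± 0.16. PKDCC differed by -3.59 ± 0.18, SGO1 by -3.53 ± 0.19 and NFIL3 by -3.52 ± 0.13, and all 4 kept the sign by count ratios, from -3.71 to -5.06. Before these conditions were set the rule also named CARF, higher in A5-KO PP, and EGLN1, KLHL9 and SPRY1, lower in it. The peaks of CARF, EGLN1 and SPRY1 lay partly off the isoform, and for EGLN1 and KLHL9 the overlapping WT PP peak lay in the CDS. KLHL9, which had both ends on the isoform, differed by -4.54 ± 0.14. The errors are counting errors of pooled reads, and no library-level value stands behind any of these differences.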

How the data were processed

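m6A-seq reads had been trimmed (fastp), aligned to GRCh38 (HISAT2) and passed to exomePeak2 by the authors, who made 1 peak list per population. From the deposited lists the pooled counts of IP and of input reads, the log2 enrichment and the p-value were used. Whether pooled counts are sums or means is not given in the sources used here. Peaks were clipped to exons of the longest coding GENCODE 44 isoform. A span with several gene IDs was placed on the ID with the longest exonic stretch. Log2 ratios of counts used a pseudocount of 1 and were centred on the list median. Counting errors came from both counts with 0.5 added, and PCR copies are not independent molecules. With counts per library not analysed here, no count model was fitted. The scripts were tested on simulated data (Python 3.11.15, numpy 2.4.6, pandas 2.3.3, scipy 1.17.1). Members and gene lists were chosen with earlier results of these data known. Sites and genes were named by rank: sites of all 4 stages by mean enrichment, single-stage sites by enrichment, up to 4 members per gene list, and the 4 largest rises and falls, each with at least 50 input reads outside the gene lists. The ranking restricted to peaks with both ends on the isoform, and further list members named beside these, were added after values were seen. Some named sites and list members are not reported here.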

Additional observations from a re-analysis of the deposited data

How the results depend on the processing

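No paired analysis was possible because each list pools its libraries, and leaving out a library was not possible for the same reason. Depth limits A5-KO PP, whose median 5′UTR peak had 48.0 input reads. All differences are described without a test, and of the recomputed values 63 stayed within the interval of the main value or 1.5 times the main count, 116 moved beyond it and 2 changed sign. Where values moved the cause was not tested. The 3 settings on both ends, 1 gene and 50 nt were added after the data were seen.

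With p below 1e-10 the lists held 687 (hPSC), 410 (DE), 494 (PP), 683 (hILO), 801 (WT PP) and 759 (A5-KO PP) 5′UTR peaks, and with both ends on the isoform 1453, 874, 984 and 654 in the first batch and 1639 for A5-KO PP. In hILO, 1722 peaks had any base in the 5′UTR. The share of placed peaks, in the order hPSC, DE, PP, hILO, WT PP and A5-KO PP, was 6.09%, 4.00%, 5.65%, 3.98%, 6.85% and 7.05% with p below 1e-10, 6.91%, 4.41%, 5.85%, 3.81%, 6.99% and 6.64% on the canonical isoform, and 6.02%, 4.05%, 5.07%, 3.20%, 6.22% and 5.32% with both ends on the isoform. With at least 50 input reads it was 7.26% (hPSC), 5.03% (DE) and 8.16% (WT PP). With at least 50 nt on the isoform it was 7.45% (hPSC), 5.02% (DE), 6.31% (PP), 7.33% (WT PP) and 7.10% (A5-KO PP). An IP/input of at least 2 gave 6.36% in PP and 4.13% in hILO, and peaks with 1 gene only gave 4.12% in hILO.

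The share reaching the start, in the same order, was 40.7%, 33.6%, 30.0%, 34.5%, 34.5% and 33.6% within 50 nt, 53.2%, 45.0%, 43.9%, 47.0%, 46.3% and 46.0% for the start of any transcript of the gene, 41.1%, 31.5%, 25.8%, 31.9%, 32.5% and 34.0% on the canonical isoform, and 18.8%, 12.1%, 11.6%, 13.3%, 15.0% and 10.9% with both ends on the isoform. With at least 50 input reads it was 34.9% in hPSC, 28.2% in DE and 28.3% in WT PP. The share of start-reaching peaks beginning with A was 57.2%, 56.4%, 54.5%, 54.8%, 55.6% and 58.8% on the canonical isoform without asking for both ends, 56.8%, 59.4%, 61.4%, 58.6%, 57.9% and 56.4% with both ends on the isoform, and 56.5% for A5-KO PP where a minimum of 50 input reads was asked. On the canonical isoform without asking for both ends, peaks away from the start had 53.5%, 54.0%, 54.9%, 52.4%, 50.6% and 52.6%, and all coding isoforms 51.0%.

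The DRACH ratio became 1.43, 1.46, 1.34, 1.32, 1.31 and 1.26 for GGAC, 0.870, 0.945, 0.918, 0.892, 0.851 and 0.926 on the opposite strand, 1.35, 1.36, 1.34, 1.28, 1.27 and 1.37 for peaks away from the start, and with both ends on the isoform 1.33 (hPSC), 1.34 (DE), 1.28 (PP), 1.29 (hILO) and 1.37 (A5-KO PP). The share found again in DE, PP and hILO was 64.8%, 39.2% and 49.9% with any overlap and 41.5%, 26.8% and 34.2% with reciprocal overlap. It was 62.7% in DE with at least 50 input reads and 38.4% in hILO with an IP/input of at least 2 in both lists. The share of A5-KO PP peaks found in WT PP was 43.2% with any overlap, 25.9% with reciprocal overlap, 45.7% with at least 50 input reads and 45.3% with both ends on the isoform. With centred count ratios the median difference between A5-KO PP and WT PP changed sign, to -0.05, and so did DE less hPSC, to 0.04.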
